A study of Mus musculus with 4 samples.

Results

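This report describes 9 genes that mark homeostatic microglia, the resting immune cells of the brain, in neural cultures of an Alzheimer's disease mouse model. The genes are Cx3cr1, P2ry12, Tmem119, Sall1, Siglech, Gpr34, Fcrls, Aif1 and Olfml3. Every non-control array probe whose RefSeq accession belongs to one of them was taken, which gave 13 probes of the 55681 on the array, for 9 of the 20887 genes that could be named. Cx3cr1 had 3 probes, Olfml3 and Siglech had 2 each, and the other genes had 1.

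The cultures came from C57BL/6 mouse embryos that were either APPswe/PS1dE9, a genotype with transgenes of familial Alzheimer's disease, or wild type (WT). Neural precursors were taken from the telencephalon at embryonic day 13, grown as floating neurospheres with EGF and FGF2 for 5 days, and plated without these factors for 7 days. Each of 4 two-colour arrays carried 1 APPswe/PS1dE9 and 1 WT RNA, and APPswe/PS1dE9 was labelled with Cy3 on replicates 1 and 2, but with Cy5 on replicates 3 and 4. The promoter of the transgenes, and whether the 4 replicates of a genotype came from separate embryos or litters, are not given in the sources used here, so that the p-values cover no more than the spread among these arrays, which may be technical.

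Microglia descend from yolk sac progenitors that enter the brain during development, and not from the neural precursors that give rise to neurons, astrocytes and oligodendrocytes. In the healthy brain they watch over the tissue with moving processes, and a set of surface receptors and transcription factors, kept up by TGF-beta and CSF1 receptor signalling, is known as their homeostatic signature. Many of these genes are known to be turned down when microglia become activated, whereas Aif1 and other general myeloid genes stay on. The members include receptors of a neuronal signal (Cx3cr1), a nucleotide (P2ry12) and a lipid (Gpr34). The others are further surface proteins (Siglech, Fcrls, Tmem119), a cytoskeletal protein (Aif1), a secreted protein (Olfml3) and a transcription factor (Sall1).

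Between 47.5% and 59.6% of spots were well above background in the channel of a genotype, no spot was saturated, and no member spot was an outlier. The neuronal genes Tubb3 and Map2, the astrocyte gene Gfap, the precursor gene Nes and 2 of the 3 probes of the myelin gene Mbp were well above background in all 8 cultures. The App probe was at a log2 ratio of 0.12 ± 0.06 and the Prnp probe at 0.75 ± 0.20 (SE, n = 4 arrays), and neither passed the test (limma adjusted p = 0.296 and 0.0717), so these probes do not check the transgene labels. On replicates 1 and 3 the cultures sharing an array differed in sex genes. Xist was well above background in only 1 of them and the Y-linked gene Eif2s3y in the other, whereas on replicates 2 and 4 both cultures had Xist and neither had Eif2s3y. Results were therefore also computed on replicates 2 and 4 alone, without the dye term.

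Of the 13 probes, 7 were higher in APPswe/PS1dE9 than in WT cultures, 1 was lower, 2 did not pass and 3 were too dim to be tested. The 7 probes belonged to 5 genes, namely all 3 probes of Cx3cr1, those of Aif1, Fcrls and Tmem119, and 1 of the 2 probes of Olfml3, and the lower one was that of Sall1. To be tested, a probe had to exceed background clearly for 1 genotype on 3 or more of the 4 arrays; it was called at a limma adjusted p under 0.05 over all 26898 tested probes. Across those, 6.89% were called higher and 1.9% lower, or 8.79% either way. The probes of Cx3cr1, Fcrls and Tmem119 entered the test through the APPswe/PS1dE9 channel alone. Such a filter favours a difference, so the count of these probes is a description. In such mixed cultures more microglia and more RNA per microglial cell cannot be told apart.

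**Figure D1:**
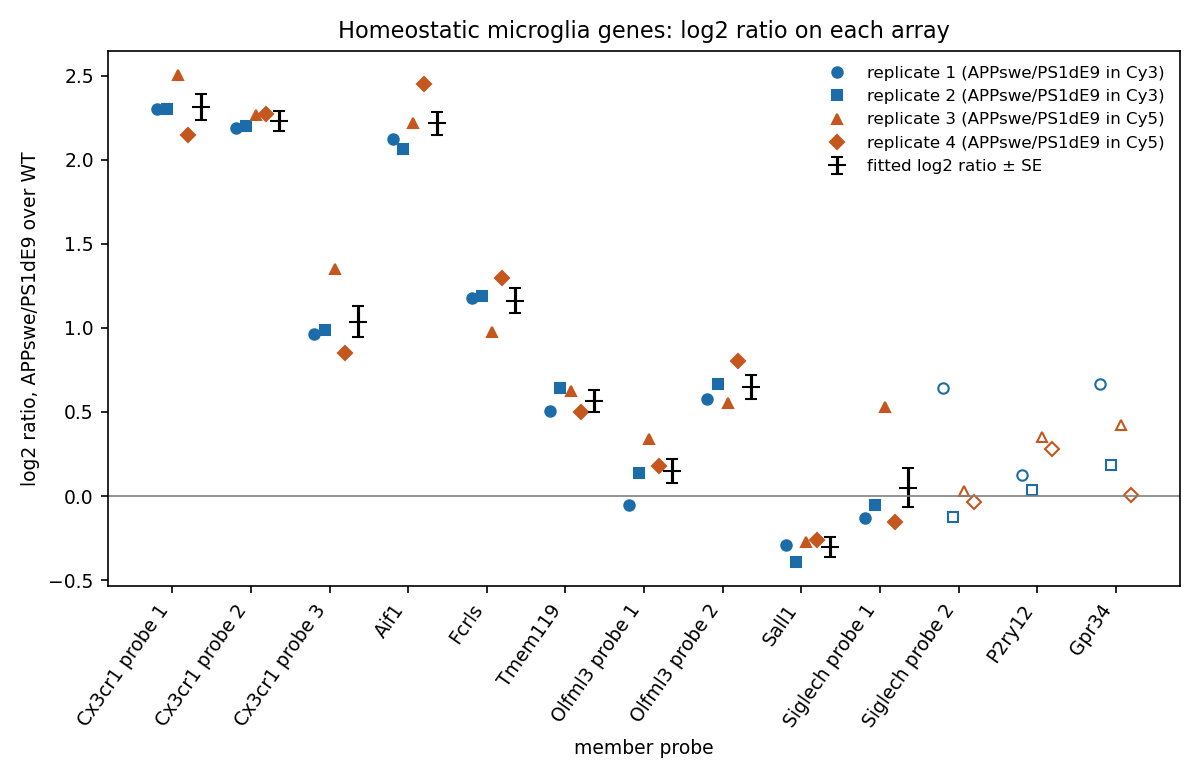
Log2 ratio of APPswe/PS1dE9 over WT on each of the 4 arrays for the 13 probes, with the fitted log2 ratio ± SE where a probe was tested; filled symbols are tested probes and open symbols probes too dim to test. Cx3cr1 probes 1 and 2 and Aif1 lie above 2 on every array, Sall1 lies below 0 on every array, and the untested probes lie between -0.12 and 0.67.

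Cx3cr1 encodes the receptor of fractalkine, the chemokine by which neurons signal to microglia, and it had the largest ratio of the 9 genes. Probe 1 (A_55_P2007964) had processed signals of 356, 312, 829 and 480 in APPswe/PS1dE9 cultures, against 35.7, 34.8, 65.2 and 33.2 in WT cultures, in the order of replicates 1 to 4. The 2 genotypes did not overlap on this probe, and WT was well above background on replicates 1 and 3 alone. Its log2 ratios on the 4 arrays were 2.30, 2.30, 2.50 and 2.15, which gave a fitted ratio of 2.31 ± 0.08, a 4.97-fold difference (limma adjusted p = 0.000152). Among the 26898 tested probes its ratio stood in place 13 from the top.

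The other probes of Cx3cr1 had the same direction. Probe 2 (A_55_P2054362) was at 2.19, 2.20, 2.26 and 2.27, with a fitted log2 ratio of 2.23 ± 0.06 (limma adjusted p = 8.2e-05). Probe 3 (A_52_P99810) was dimmer and at 0.96, 0.99, 1.35 and 0.85, with a fitted log2 ratio of 1.04 ± 0.09 (limma adjusted p = 0.00211). On none of the arrays did WT exceed background clearly for probe 3, so that its ratio has one measured side. It is given as 2.05-fold higher in APPswe/PS1dE9 cultures. For this, WT was set to the lowest signal well above background or to the spot's own, whichever was higher. The spot's own signal was used, so the 2.05-fold equals the fitted fold and is not a lower limit. Without replicate 3 the fitted log2 ratio was 0.91. In Feature Extraction's processed signals, which carry no added offset, probes 1 and 2 were at log2 ratios of 3.50 and 3.44, and that of probe 1 amounts to an 11.3-fold difference.

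Aif1 encodes Iba1, the calcium-binding and actin-bundling protein by which microglia and macrophages are commonly stained. Its probe (A_51_P400543) was well above background in all 8 cultures, so the ratio was measured on both sides. The processed signals were 309, 224, 490 and 540 in APPswe/PS1dE9 cultures, against 48.9, 35.8, 59.4 and 58.5 in WT cultures. The genotypes did not overlap. The log2 ratios were 2.12, 2.07, 2.22 and 2.45, fitted at 2.22 ± 0.07, a 4.64-fold difference (limma adjusted p = 0.000129). In the processed signals the log2 ratio was 2.89 ± 0.07, or 7.41-fold. Its paralogue Aif1l, which is expressed outside the myeloid lineage, was also measured in all 8 cultures and was at -0.10 ± 0.08 (limma adjusted p = 0.516).

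**Figure D2:**
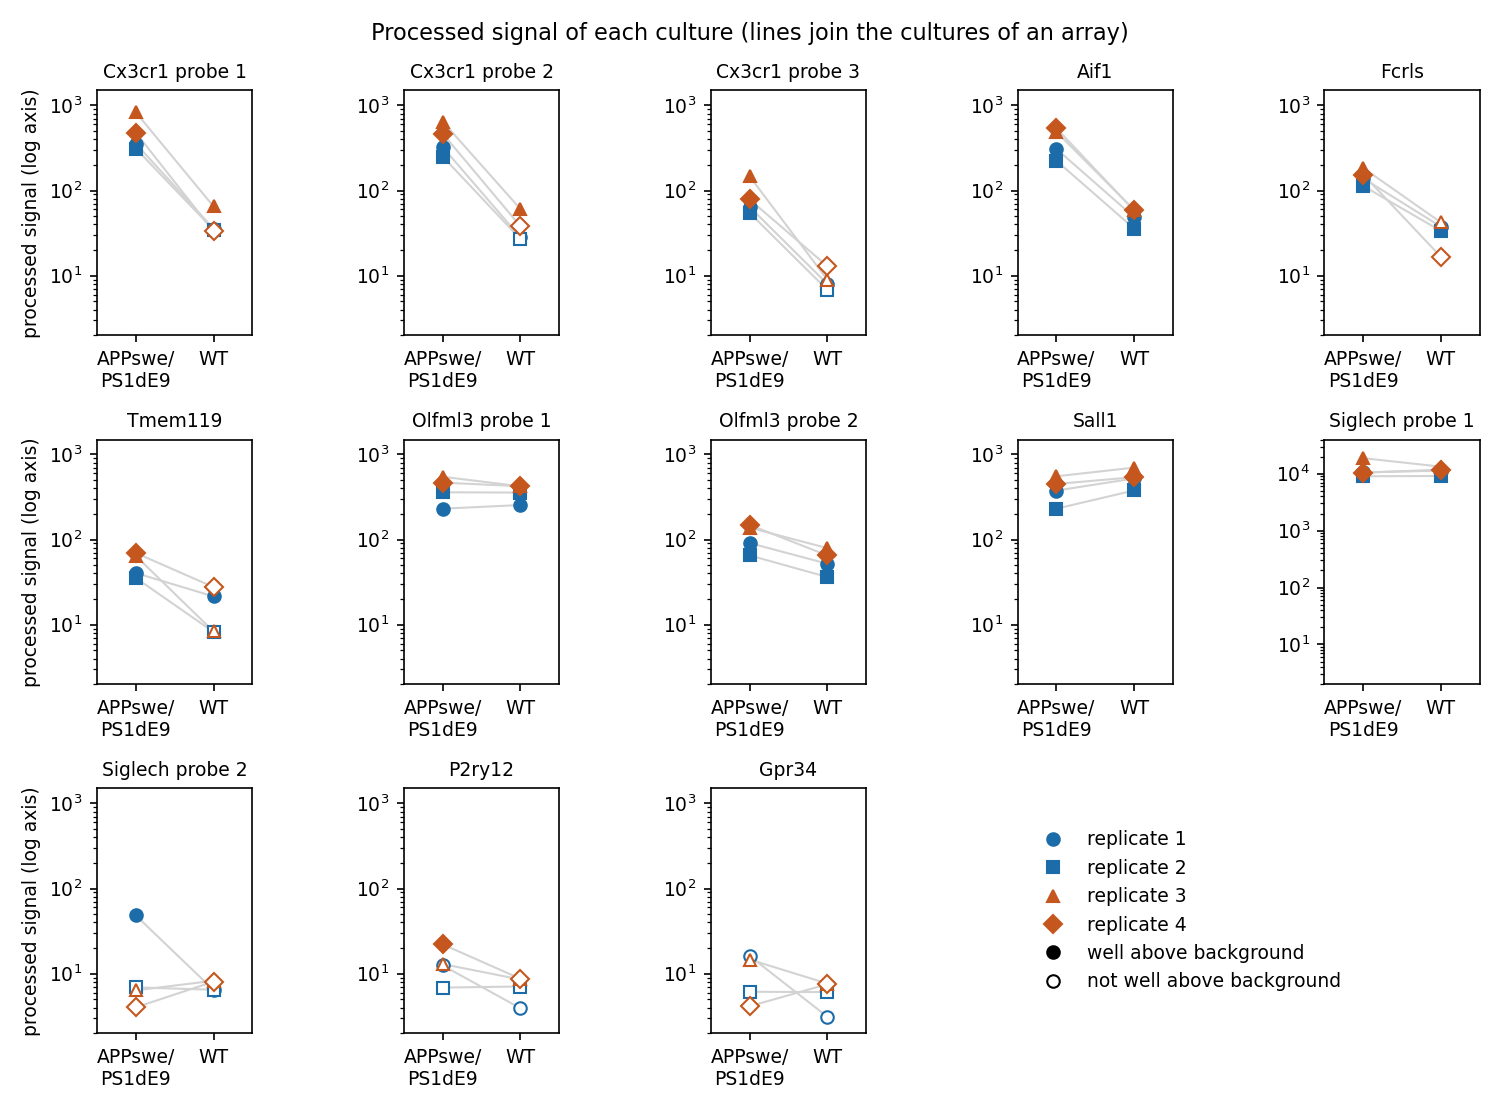
Feature Extraction's processed signal of each probe on a log axis, APPswe/PS1dE9 cultures left and WT cultures right, with a line joining the cultures of 1 array; filled symbols are well above background and open symbols are not. For Cx3cr1, Aif1, Fcrls and Tmem119 every APPswe/PS1dE9 culture lies above every WT culture, while P2ry12, Gpr34 and Siglech probe 2 lie mostly among open symbols.

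Fcrls encodes a Fc receptor-like scavenger molecule known in mice from resident microglia. Its probe (A_52_P231075) had processed signals of 139, 113, 184 and 154 in APPswe/PS1dE9 cultures, against 37.7, 33.5, 42.2 and 16.6 in WT cultures, where replicates 1 and 2 were well above background and replicates 3 and 4 were not. The genotypes did not overlap, and WT replicate 4 was the lowest. The log2 ratios were 1.18, 1.19, 0.98 and 1.29, fitted at 1.16 ± 0.07 (limma adjusted p = 0.000692), a 2.24-fold difference. In the processed signals the log2 ratio was 2.24 ± 0.20, or 4.74-fold. Of the other Fc receptor-like genes Fcrl5 was the one that was measured, at 0.05 ± 0.06 (limma adjusted p = 0.662), and Fcrl1, Fcrl6, Fcrla and Fcrlb were too dim.

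Tmem119 encodes a transmembrane protein that is used to tell microglia from macrophages that enter the brain. Its probe (A_51_P418116) had processed signals of 40.4, 35.4, 64.3 and 69.6 in APPswe/PS1dE9 cultures, against 21.5, 8.22, 8.32 and 27.6 in WT cultures. The genotypes did not overlap, but WT was well above background on replicate 1 alone. The log2 ratios were 0.50, 0.64, 0.62 and 0.50, with a fitted value of 0.57 ± 0.07 (limma adjusted p = 0.00531), or 1.48-fold. The call ended in the processed signals, where the log2 ratio was larger and its error too, at 1.82 ± 0.35 (limma adjusted p = 0.0759). It also ended without replicate 3 (0.54, adjusted p = 0.0703), without replicate 4 (0.60, adjusted p = 0.0670) and on replicates 2 and 4 alone (0.57, adjusted p = 0.113) in limma.

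**Figure D3:**
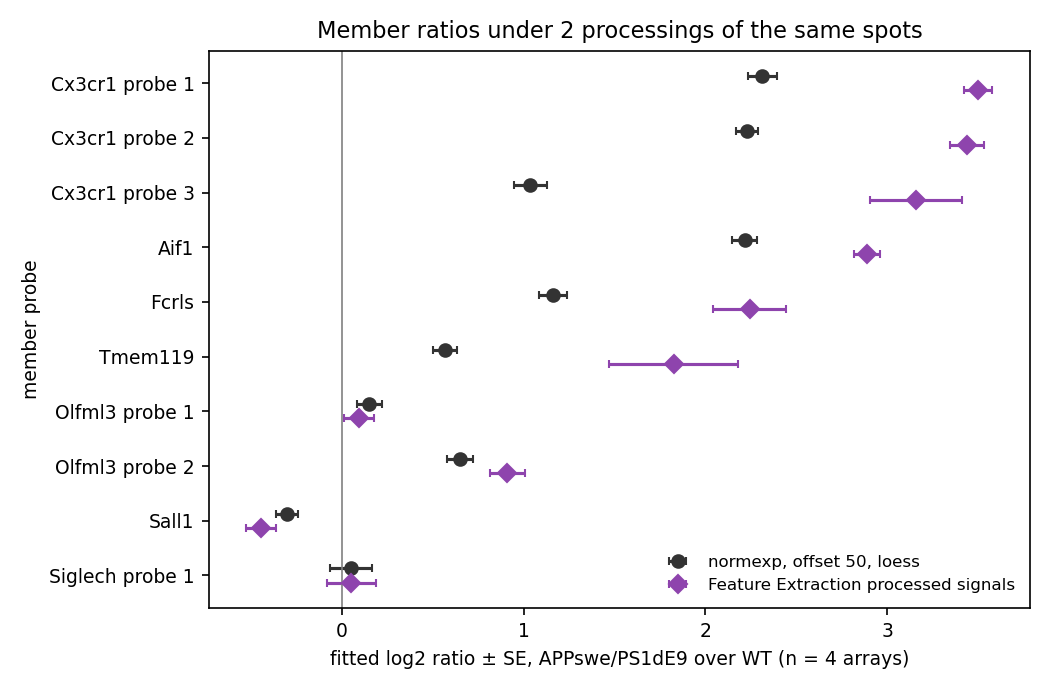
Fitted log2 ratios ± SE (n = 4 arrays) of the 10 tested probes with normexp background correction and loess (circles) and with Feature Extraction's processed signals (diamonds). The diamonds lie further from 0 for Cx3cr1, Aif1, Fcrls and Tmem119, whose WT signals are dim, and close to the circles for Olfml3 probe 1 and Siglech probe 1.

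Olfml3 encodes a secreted olfactomedin-like protein, and its probes disagreed. Probe 2 (A_51_P191782) was at log2 ratios of 0.57, 0.67, 0.55 and 0.80, fitted at 0.65 ± 0.07 (limma adjusted p = 0.00431), with processed signals of 91.1, 65.2, 138 and 149 in APPswe/PS1dE9 cultures, against 52.1, 36.3, 79.5 and 65.2 in WT cultures. These signals overlap between the genotypes across arrays, while within each array APPswe/PS1dE9 was higher. Probe 1 (A_55_P2102540) was at -0.05, 0.14, 0.34 and 0.18, fitted at 0.15 ± 0.07, with a 95% interval of -0.02 to 0.32 (limma adjusted p = 0.255). Both probes were well above background in all 8 cultures and carry the same accession, and the highest array of probe 1 lay below the lowest of probe 2. The call on probe 2 ended without replicate 4 (0.59, limma adjusted p = 0.0659). Of the 6 measured genes of the olfactomedin family, Olfml3 among them, limma called 2 higher, against 10.2% over all measured named genes. These were Olfml2b (0.40 ± 0.07, limma adjusted p = 0.0251) and Olfml1 (0.43 ± 0.10, limma adjusted p = 0.0445). Olfm2 (0.15 ± 0.06), Olfm3 (0.12 ± 0.06) and Olfm1 (-0.10 ± 0.07) did not pass, and Olfml2a was too dim.

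Sall1, a zinc finger transcription factor that maintains the identity of adult microglia, was lower in APPswe/PS1dE9 cultures. It is also expressed by neural precursors of the embryo. The probe (A_55_P1977850) had processed signals of 377, 231, 554 and 451 in APPswe/PS1dE9 cultures, against 522, 378, 701 and 541 in WT cultures, all well above background. APPswe/PS1dE9 was the lower culture on each of the 4 arrays, although the ranges overlap across arrays. The log2 ratios were -0.29, -0.39, -0.27 and -0.26, and the fitted value was -0.30 ± 0.06 (limma adjusted p = 0.0352). This call was weak: it ended under 10 of 19 alternatives, with adjusted p up to 0.391 on replicates 2 and 4 alone, and the ratio stayed between -0.45 and -0.28. The other Spalt genes were at -0.04 ± 0.11 (Sall3), 0.02 ± 0.07 (Sall2) and 0.01 ± 0.06 (Sall4), with limma adjusted p of 0.868 or more.

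Siglech encodes a sialic acid-binding lectin of mouse microglia and plasmacytoid dendritic cells that signals through the adaptor Tyrobp. Its 1 tested probe did not pass. Probe 1 (A_55_P2141013) was well above background in all 8 cultures. Its processed signals were 10560, 9034, 18807 and 10453 in APPswe/PS1dE9 cultures, against 11344, 9134, 13310 and 11795 in WT cultures. No probe of another member exceeded 829 in any culture. The log2 ratios of probe 1 were -0.13, -0.05, 0.53 and -0.15. The fitted value was 0.05 ± 0.11, with a 95% interval of -0.23 to 0.33 (limma adjusted p = 0.827). Replicate 3 stood apart from the other arrays on this probe. Probe 2 (A_55_P2165790) carries the same accession and was well above background in 1 of 8 cultures, that of APPswe/PS1dE9 on replicate 1, where its processed signal was 48.3, against 6.44 in the WT culture of that array. The other processed signals of probe 2 lay between 4.02 and 8.26. The probes of Siglech thus differed in detection in every culture but 1, and which of them reads the transcript was not tested.

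P2ry12, the ADP receptor that steers microglial processes to injured cells, and Gpr34, a receptor of lysophosphatidylserine, could not be measured. The P2ry12 probe (A_51_P338878) had processed signals of 12.5, 6.87, 13.0 and 22.1 in APPswe/PS1dE9 cultures, of which replicate 4 alone was well above background, against 3.93, 7.07, 8.55 and 8.71 in WT cultures. Its log2 ratios were 0.13, 0.04, 0.35 and 0.28, positive on each array. Gpr34 (A_55_P2039684) was not well above background in any culture and was at 0.67, 0.18, 0.42 and 0.01. When dim probes were tested too, neither passed (limma adjusted p = 0.236 for P2ry12 and 0.321 for Gpr34). At this signal a difference in these receptors was not detectable, which does not show that they were alike. P2ry13, P2ry14 and Gpr171, related receptor genes, were too dim to be tested as well.

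Among the called genes, the order of the fitted ratios was thus Cx3cr1, Aif1, Fcrls, Tmem119 and Sall1. Here the brightest probe of Cx3cr1 is taken and Olfml3 is left out. The arrays of Cx3cr1 probe 1 (2.15 to 2.50) and of Aif1 (2.07 to 2.45) overlapped, and whether these neighbours differ was not tested. By processed signals, Cx3cr1 probe 1 was above Aif1 on each array. It was at 3.31, 3.16, 3.67 and 3.85, against 2.66, 2.65, 3.05 and 3.20 for Aif1. The arrays of Fcrls (0.98 to 1.29) lay within those of Cx3cr1 probe 3 (0.85 to 1.35), and those of Tmem119 (0.50 to 0.64) overlapped those of Olfml3 probe 2 (0.55 to 0.80). The probes differ in brightness, and the offset pulls dim ratios towards 0. In the processed signals Cx3cr1 probe 1 was at 3.50, Aif1 at 2.89 and Fcrls at 2.24, of which Aif1 alone was well above background in all WT cultures.

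Promoter sequences are shown for Cx3cr1, Aif1 and Fcrls because these members had the largest ratios, and for P2ry12 because it is the classical member that stayed dim. Each is the stretch of 250 bases before the RefSeq gene start, 5′ to 3′, from RefSeq's table of build GRCm38.p6, which held 7 of the 9 genes. Capitals mark AGGAAG, the ETS core read by the myeloid factor PU.1, and GAAA followed by any 2 bases and a second GAAA, a repeat found in interferon-stimulated elements, on either strand.
Cx3cr1, chr9:120068297-120068546, minus strand: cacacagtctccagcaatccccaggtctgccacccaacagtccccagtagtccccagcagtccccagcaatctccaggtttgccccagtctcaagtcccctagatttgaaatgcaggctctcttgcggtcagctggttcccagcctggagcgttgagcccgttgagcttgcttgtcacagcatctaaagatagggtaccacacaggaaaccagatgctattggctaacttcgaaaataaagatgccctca
Aif1, chr17:35176053-35176302, minus strand: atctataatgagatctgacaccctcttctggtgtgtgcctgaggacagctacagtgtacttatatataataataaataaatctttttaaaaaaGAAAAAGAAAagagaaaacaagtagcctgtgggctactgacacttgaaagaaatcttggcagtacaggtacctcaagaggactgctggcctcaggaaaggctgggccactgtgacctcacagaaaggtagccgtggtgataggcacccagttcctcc
Fcrls, chr3:87263525-87263774, minus strand: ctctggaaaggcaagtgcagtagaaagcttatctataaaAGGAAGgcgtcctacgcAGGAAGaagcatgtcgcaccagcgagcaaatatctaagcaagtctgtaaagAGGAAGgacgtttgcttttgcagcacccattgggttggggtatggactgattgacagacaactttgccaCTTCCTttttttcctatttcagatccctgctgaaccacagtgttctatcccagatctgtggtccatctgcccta
P2ry12, chr3:59262986-59263235, minus strand: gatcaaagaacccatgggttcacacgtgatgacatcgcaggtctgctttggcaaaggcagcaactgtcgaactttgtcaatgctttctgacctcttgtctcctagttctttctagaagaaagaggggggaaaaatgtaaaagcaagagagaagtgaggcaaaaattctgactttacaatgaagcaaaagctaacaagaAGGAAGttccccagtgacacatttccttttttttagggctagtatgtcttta

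AGGAAG was present 4 times before Fcrls and 1 time before P2ry12, and the GAAA repeat was present 1 time before Aif1. Among all 32851 promoter entries of the same length, 29.5% held AGGAAG at least 1 time, 0.268% held it at least 4 times, and 2.98% held the GAAA repeat. The Cx3cr1 stretch held neither, which says only that these letters are not in this window. These are matches of letters, and binding was not measured.

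The genes with the most similar pattern were found by the root mean square difference of the 4 log2 ratios, over named genes outside the members. For Cx3cr1 probe 2 these were Fcer1g (difference 0.06), the common chain of activating Fc receptors, Gpr84 (0.07), a receptor of medium-chain fatty acids, and Bcl2a1d (0.17), a survival gene. Fcer1g, Gpr84 and Bcl2a1d were also the 3 nearest to Aif1, with differences of 0.10 to 0.12. Cx3cr1 probe 1 was nearest to Gpr84 (0.14), Fcer1g (0.20) and Ctss (0.28), and the dimmer probe 3 to Nxph3 (0.07), Aebp1 (0.14) and Capg (0.16). Fcrls was nearest to Cd14 (0.08), the lipopolysaccharide co-receptor, Cyth4 (0.08) and Foxj1 (0.08), the factor of motile cilia. Foxj1 is not a myeloid gene, and with 4 values a small difference says no more than that the ratios were alike.

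Other genes listed here with the homeostatic signature were mostly not called. Limma called 5 of the 16 measured genes higher and 0 lower (0 lower also at an unadjusted p under 0.05), out of 25 listed, and their median log2 ratio was 0.14. Over all 13669 measured named genes 10.2% were called higher and 2.16% lower, and the median was 0.01. Among those of smallest p were Gpr84 (2.27 ± 0.06), Csf1r (0.95 ± 0.07), the receptor on which microglial survival rests, and Rnase4 (0.66 ± 0.07). Csf1r had another probe at 0.02 ± 0.07 that did not pass (limma adjusted p = 0.865). The genes too dim to be tested included P2ry13, Slc2a5, Crybb1, Cd33, Hpgds, Bhlhe41, Vsir and Lpcat2. Of the 16, 5 were measured through APPswe/PS1dE9 alone, and for Gpr84 no WT culture was well above background. Its 4.83-fold difference uses the WT spot's own signal and has 1 measured side. Gpr84 was put in this list by choice, and whether it marks resting or activated microglia here was not tested. The count of 5 was 3 without replicate 3, without replicate 4 and on replicates 2 and 4 alone, and 2 when both channels had to be well above background on all arrays.

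General genes of microglia and macrophages moved with Cx3cr1 and Aif1. Limma called 16 of the 18 measured genes higher and 0 lower (0 lower also at an unadjusted p under 0.05), out of 27 listed. The share called higher over all measured named genes was 10.2%. The median log2 ratio of the 18 was 1.62, with array medians of 1.63, 1.61, 1.59 and 1.46. Cd52 (2.60 ± 0.07), Ctss (2.52 ± 0.07), Fcer1g (2.23 ± 0.07) and C1qc (2.07 ± 0.07) had the smallest p. The 9 dim or unmatched genes of the list included Ptprc, the pan-leukocyte gene, well above background in 2 APPswe/PS1dE9 cultures and 1 WT culture, and Spi1, which encodes PU.1, in 1 APPswe/PS1dE9 and 0 WT cultures. Itgam, which encodes the integrin CD11b, was at 0.11 ± 0.10 and 0.32 ± 0.11 on its tested probes and did not pass (limma adjusted p = 0.559 and 0.135). Of the 18, 9 were measured through APPswe/PS1dE9 alone, a filter that favours a difference, and 7 were called higher when both channels had to be well above background on all arrays. In the processed signals the median of this list was 2.65.

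Genes known to rise when microglia are activated were higher as well. Limma called 15 of the 17 measured genes higher and 0 lower (1 lower at an unadjusted p under 0.05), out of 22 listed, and their median log2 ratio was 0.60. The share called higher over all measured named genes was 10.2%. Gpnmb (1.59 ± 0.06), Lgals3 (1.05 ± 0.06), Ctsb (0.97 ± 0.06) and Ctsd (0.81 ± 0.06) had the smallest p. Cst7, Itgax and Ccl6 were too dim. Several genes of this list, such as Apoe and Cd9, are expressed by astrocytes too. Of the 17, 3 were measured through APPswe/PS1dE9 alone, a filter that favours a difference, namely Gpnmb, Lyz2 and Spp1. The count of 15 was 6 without replicate 3, 4 without replicate 4 and 5 on replicates 2 and 4 alone. It was 11 when both channels had to be well above background on all arrays.

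**Figure D4:**
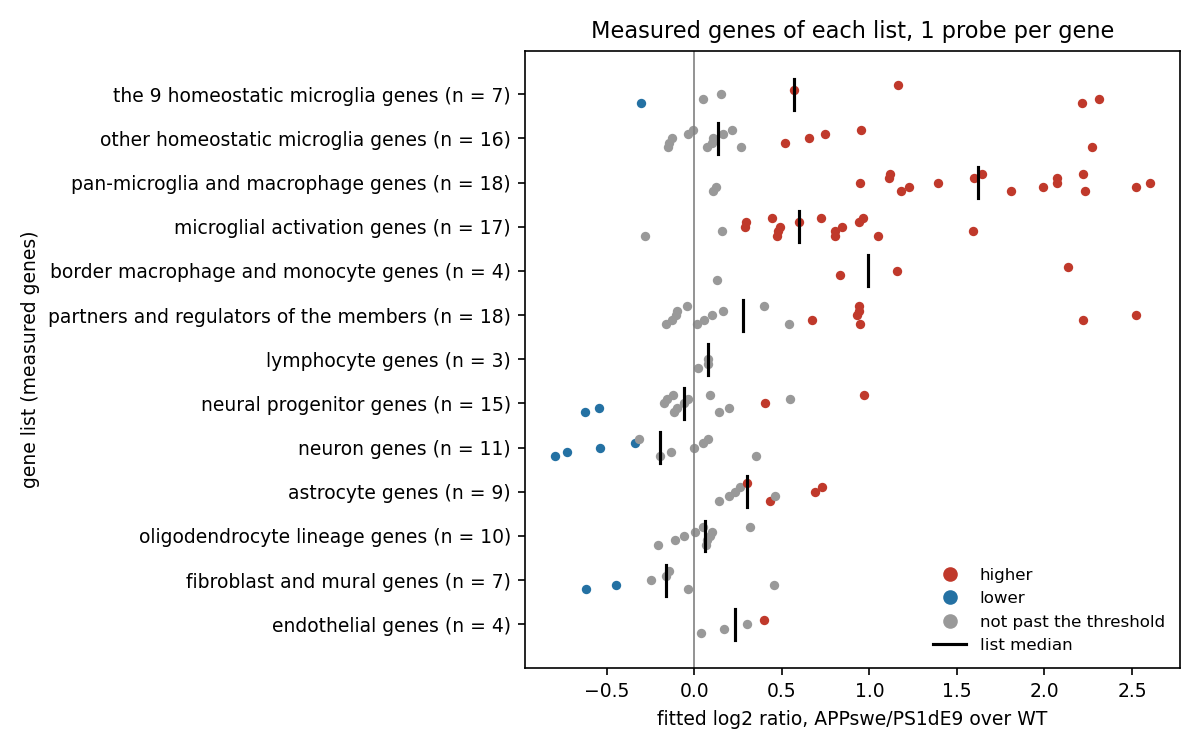
Log2 ratios, APPswe/PS1dE9 against WT, fitted for the measured genes of 13 lists, 1 probe per gene, the brightest; red points are called higher, blue points lower and grey points did not pass, and a black bar is the list median. The 7 measured homeostatic genes, with Siglech counted through probe 1, spread from -0.30 to 2.31. The general microglia and macrophage genes gather at a median of 1.62.

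Ligands, regulators and cleaving enzymes tied to the members were taken as a further list of 20 genes. Limma called 7 of the 18 measured genes higher, and their median log2 ratio was 0.28. Over all measured named genes 10.2% were called higher. Of the 18, 5 were measured through APPswe/PS1dE9 alone, a filter that favours a difference. Of these 5, Ctss, Tyrobp and Il34 were called higher and Entpd1 and Nt5e were not. Ctss, a protease, Tyrobp (2.22 ± 0.09), the adaptor, Irf8 (0.94 ± 0.07), a myeloid transcription factor, and Tgfbr2 (0.93 ± 0.07), a TGF-beta receptor, had the smallest p. Ctss, Tyrobp and Irf8 also stand in the list of general genes. The other 3 that rose, named after their values were seen, were ligands: Cx3cl1, the fractalkine gene (0.94 ± 0.09, limma adjusted p = 0.00291), and the CSF1 receptor ligands Csf1 (0.94 ± 0.09, adjusted p = 0.00312) and Il34 (0.67 ± 0.09, adjusted p = 0.00974). Adam10 (-0.11 ± 0.06) and Adam17 (0.06 ± 0.09), which release fractalkine from the membrane and are also named after their values were seen, did not pass.

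Markers of other cell types that could carry some of these genes were set beside the members. The share called higher over all measured named genes was 10.2%. Of 17 border macrophage and monocyte genes 4 were measured and 3 were higher, Ms4a7 (2.13 ± 0.12), Stab1 (1.16 ± 0.08) and Pf4 (0.83 ± 0.13), while Folr2 (0.13 ± 0.11) did not pass. All 4 were measured through APPswe/PS1dE9 alone, a filter that favours a difference, and none could be tested when both channels had to be well above background on all arrays. Ms4a7 (4.39-fold higher) and Stab1 (2.23-fold higher) had no WT culture well above background. These folds use the WT spot's own signal and have 1 measured side. The summed processed signal of the 4 measured genes was 291 to 713 in APPswe/PS1dE9 cultures and 48.4 to 134 in WT cultures. This sum holds only genes chosen through the APPswe/PS1dE9 channel, so it is a description and cannot compare the genotypes. The defining genes Mrc1, Cd163, Lyve1 and Ccr2 were too dim to be tested. Of 10 lymphocyte genes 3 were measured, and limma called 0, also at an unadjusted p under 0.05. Of 8 dendritic cell genes Bst2 (2.24 ± 0.10), which interferons also induce, and Batf3 (0.93 ± 0.09) were higher. Tcf4 (-0.14 ± 0.08) did not pass, and Flt3, Zbtb46, Xcr1, Ly6d and Clec9a were too dim to be tested. The part of these cells in the member ratios was not tested.

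Markers of neural cells changed in both directions. Over all measured named genes 10.2% were called higher and 2.16% lower. Of 9 astrocyte genes 4 were higher, with a median of 0.30, and Gfap had the smallest p (0.69 ± 0.06 on its brightest probe, 0.42 and 1.16 on the others). Of 11 neuron genes 4 were lower, with a median of -0.20, among them Nefl (-0.72 ± 0.06) and Nefm (-0.80 ± 0.07). Of 15 neural progenitor genes 2 were lower, Hes5 (-0.63 ± 0.07) and Gsx2 (-0.55 ± 0.07), and 2 were higher, Vim (0.97 ± 0.08) and Prom1 (0.41 ± 0.06), named after their values were seen, with a list median of -0.06. The 2 higher calls of 15 lie near the share over all genes. The part of precursor cells in the ratio of Sall1 was not tested. Of 10 oligodendrocyte lineage genes limma called 0, with 1 higher and 1 lower at an unadjusted p under 0.05. Of 7 measured fibroblast and mural genes 2 were lower, and of 4 measured endothelial genes 1 was higher. That endothelial gene, Flt1, was measured through APPswe/PS1dE9 alone.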

How the data were processed

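RNA of 8 cultures was compared on 4 two-colour Agilent arrays, on 1 slide with 1 scan and read with Feature Extraction 11.0.1.1, per the file headers. The authors deposited median intensity values of spot and local background in both channels, not normalized, and, per the file headers, background-subtracted and dye-normalized processed intensity values and a log10 value of Cy5 over Cy3. A value table the authors deposited for 29350 spots matched log2 ratios of the processed signals, running APPswe/PS1dE9 over WT without centring (slopes -1.00, -1.00, 1.00 and 1.00 on log2 Cy5 over Cy3, column medians -0.0797, -0.155, -0.0373 and -0.0378). The direction of each ratio follows the dyes in the labels. Spearman correlations of the APPswe/PS1dE9 over WT ratios were 0.54 and 0.46 between arrays of 1 dye orientation and 0.10 to 0.25 between orientations.

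In limma 3.58.1 (R 4.3.3), median signals were corrected by normexp with an offset of 50 and normalized by loess within each array, with control and outlier spots at weight 0. Spots of a probe were averaged. The log2 ratios were fitted with lmFit and eBayes on a genotype coefficient and a dye intercept (2 residual and 4.16 prior degrees of freedom), two-sided, with Benjamini-Hochberg adjustment over all 26898 kept probes. The fit was tested on simulated data. The number of arrays limits the precision. By accession, a RefSeq gene table (assembly GRCm38.p6) named 27509 probes with 20887 symbols and was used for names and promoter sequences because the array annotation has another build. In lists, the brightest kept probe stands for a gene.

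The members and lists were chosen with earlier results of these data known. Genes named were all members, the 4 measured genes of smallest p in the direction of each list's median, fixed marker and transgene genes, and the 3 nearest genes of each member past a log2 ratio of 1; a few genes this rule names are not reported here. The cultures of a replicate share an array, so the ratio within an array is paired by design. Alternatives covered background, normalization, filter, dye term, deposited values, left-out arrays and the fit without the pairing.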

Additional observations from a re-analysis of the deposited data

Results flagged for a closer look

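The log2 ratio of Siglech probe 1 on replicate 3 was 0.53, whereas the other 3 arrays lay between -0.15 and -0.05. Its gap to the nearest array, divided by the whole range, was 0.856, above Dixon's 95% critical value for 4 values. The 13 member probes were screened in this way, chance flags about 1 in 20 such groups, and the cause was not tested. The processed signals on replicate 3 were 18807 in the APPswe/PS1dE9 culture and 13310 in the WT culture.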

How the results depend on the processing

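Cx3cr1 (3 probes), Aif1 and Fcrls kept their direction and their call under each of the 17 to 19 alternatives that gave a value, and Olfml3 probe 1 passed the test in 0 of 19. Leaving out 1 array gave 5 to 7 member probes higher and 0 to 1 lower, with 363 to 2832 kept probes higher and 5 to 721 lower. The lowest counts of kept probes came without replicate 4, and without replicate 3 they were 482 higher and 21 lower. Member probes called lower were 0 without replicate 2, without replicate 3 and without replicate 4. Leaving out 1 array also gave log2 ratios of -0.33 to -0.28 for Sall1 and 0.53 to 0.60 for Tmem119. For Olfml3 probe 2 they were 0.59 to 0.71, and for Siglech probe 1 -0.12 to 0.22. No member probe was called lower (0) with an offset of 0, processed signals, no background correction, no filter, the deposited table, replicates 2 and 4 alone (without the dye term) or no replicate block. Sall1 was then at -0.35, -0.45, -0.33, -0.30, -0.446, -0.32 and -0.30. Tmem119 was at 1.82 in the processed signals, 1.825 in the deposited table and 0.57 on replicates 2 and 4 alone. Siglech probe 1 was at -0.14 with median centring and -0.10 on replicates 2 and 4 alone. Member probes called higher were 2 when both channels had to be well above background on all arrays, which leaves fewer probes, and 4 with 1 probe per gene. Kept probes called were 759 higher and 226 lower in the processed signals, 1050 and 98 with no filter, 752 and 216 in the deposited table, 458 and 7 on replicates 2 and 4 alone, and 976 and 178 with no replicate block (the unpaired fit). Lower calls numbered 300 with no background correction and 301 with no dye intercept. With median centring 1559 were higher and 1675 lower, so the balance of directions over all probes depends on loess. The causes were not tested. Signal over background limits P2ry12, Gpr34 and Siglech probe 2.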
